A study of Oryza sativa with 6 samples.

Results

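The subject here is the K+PEG immunoprecipitation of rice DNA with the BG4 antibody, set against input DNA. It was described by its reproducible segments, the stretches shared by a peak of replicate 1 and a peak of replicate 2, with a minimum overlap of 1 bp. There were 587 such segments, made from 748 and 871 peaks of replicates 1 and 2, among 3052 peaks in all immunoprecipitation lists of the series on the same stretch. That stretch runs from position 1 to 5855384 (5.86 Mb) of Chr1 in MSU v7.0 coordinates, the part that both replicate lists used here cover. The K+PEG libraries came from wild-type rice seedlings of 2 weeks, whose fragmented DNA was denatured and refolded in 40% PEG200 with 150 mM KCl, and the input libraries were DNA of the same kind that was not immunoprecipitated. Of the 6 samples of the series, 2 were K+PEG and 2 were input libraries. The buffers of antibody incubation and washing also held KCl. Everything below is a description of these libraries, since 2 libraries of 1 condition allow no test, and peaks of 1 genome are not replicates.

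DNA G-quadruplexes (G4s) form in G-rich DNA when guanines pair in planar quartets that stack on each other. A monovalent cation sits in the channel between the quartets, and K+ is known to hold the stack more tightly than Na+. PEG200, a small polyethylene glycol, crowds the solution and favours the folded state. BG4 is an engineered antibody fragment that recognises folded G4s with little regard to their sequence, so that sequenced fragments pile up over places where a G4 folded. Such a place is named an IP-G4.

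As examples of sequence, the oligos that the study synthesised for loci of the K+-specific and of the common kind are given here. Every run of at least 3 guanines is in capitals. The position of these oligos in the genome was not analysed here, so they need not be typical of the segments. The paper reports that motifs with shorter guanine runs were abundant in each subtype of IP-G4.
K+-specific oligo: GGGcggctGGGaggccGGGGtGGGGGG
Common oligo R1: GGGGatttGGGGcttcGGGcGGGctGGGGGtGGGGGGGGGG
Common oligo R2: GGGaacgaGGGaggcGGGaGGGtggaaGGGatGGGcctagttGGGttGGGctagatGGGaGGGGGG
The K+-specific oligo has 27 bases, of which 20 (74.1%) are guanines, and carries 4 runs, the number that an intramolecular G4 with 3 stacked quartets needs. The common oligos carry 6 and 10 such runs in 41 and 66 bases, with 70.7% and 60.6% guanine. All of these oligos are far shorter than an IP-G4 peak, the shortest of which had 200 bp in each replicate.

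The peaks of the K+PEG libraries were mostly shorter than 1000 bp and had a median enrichment near 4-fold over input. Fold enrichment is the peak caller's ratio of the immunoprecipitated signal to the local input background at the summit, the highest point of a peak. Its median was 4.30 in replicate 1 and 3.99 in replicate 2. The middle 50% of peaks lay between 3.55 and 5.44 in replicate 1 and between 3.19 and 5.54 in replicate 2. The weakest peaks had 2.099 and 1.857, and the strongest 25.3 and 19.2. At least 10-fold enrichment was rare, with 23 peaks in replicate 1 and 30 in replicate 2. All peaks on the stretch had a q-value of at most 0.05, and the largest q-values were 0.00736 and 0.00734.

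Replicate 2 had more and longer peaks. It held 149 peaks per Mb and covered 6.67% of the stretch, beside 128 per Mb and 5.34% in replicate 1. Its peaks had a median length of 362 bp (quartiles 268 and 537 bp), beside 347.5 bp (261 and 503 bp) in replicate 1. Peaks of at least 1000 bp numbered 45 in replicate 2 and 19 in replicate 1. The study's sequencing summary gives more reads for this library than for the other replicate. The part of depth in these differences was not tested, and the files used here hold no read counts. Longer peaks tended to be more enriched, with a Spearman's rho between fold enrichment and length of 0.51 across 748 peaks of replicate 1 and 0.58 across 871 peaks of replicate 2. These points share a library and a genome, and both measures come from the same signal.

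Most segments came from a simple pair of peaks. Of the 587 segments, 532 (90.6%) arose from 1 peak of each replicate that met no further partner. The other 55 came from 10 peaks of replicate 1 and 18 of replicate 2 that each spanned 2 peaks of the other library. The segment filled a median of 92.0% of its replicate 1 peak and 85.5% of its replicate 2 peak. It equalled the whole replicate 1 peak in 187 cases and the whole replicate 2 peak in 128. Required to cover at least 50% of both peaks, 479 segments remained.

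Segments were 312 bp long at the median (quartiles 240.5 and 450.5 bp), with a mean of 379 ± 210 bp (SD across segments, n = 587). The merged peaks of both replicates, as the outer limits of the same loci, spanned 499 bp at the median. The segments themselves covered 222425 bp, or 3.80% of the stretch. Only 40 segments (6.81%) were shorter than the shortest peak of 200 bp, and 4 were shorter than 50 bp, the smallest having 6 bp, so slivers of overlap made up little of the set. At the other end, 118 segments had at least 500 bp and 12 had at least 1000 bp. Longer segments tended to be more enriched here too. When segments were ranked by the mean of both fold enrichments, the median length was 236, 275, 338.5 and 469 bp from the lowest to the highest quartile.

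At the segments, the replicates gave similar levels of enrichment. The median was 4.54-fold in replicate 1 and 4.68-fold in replicate 2, and the mean of both had a median of 4.71-fold. The ratio of replicate 2 to replicate 1 had a median of 1.02. Enrichment was higher in replicate 2 at 312 segments and higher in replicate 1 at 275, so neither library stood above the other as a whole. At 563 segments (95.9%) the replicates lay within a factor of 2 of each other. Of the 24 that did not, 12 were higher in each replicate, with log2 ratios down to -2.11 and up to 1.94. The p-values told the libraries apart more clearly, since the −log10 p-value was higher in replicate 2 at 442 segments (75.3%). Replicate 2 also has more reads in the study's sequencing summary, and the part of depth in this difference was not tested. Spearman's rho of the fold enrichments was 0.55 across the 587 segments, which share 1 genome. Both replicates reached 5-fold at 171 segments and 10-fold at 14.

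**Figure D1:**
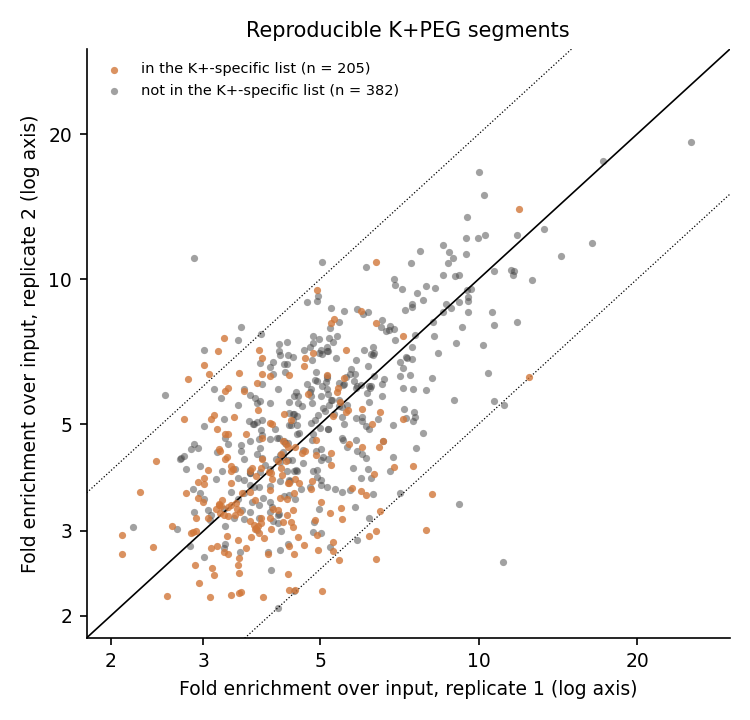
Fold enrichment over input at each of the 587 reproducible segments, replicate 1 on the x axis and replicate 2 on the y axis, both log axes without unit. Points are segments, orange where the segment is in the K+-specific list (n = 205) and grey where it is not (n = 382). The solid line marks equal values and the dotted lines a factor of 2, between which 563 segments lie.

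The strongest segment lay on Chr1 from 4232026 to 4233987 and was also the longest, with 1962 bp. Its fold enrichment was 25.3 in replicate 1 and 19.2 in replicate 2, the highest peak of either list. The next, from 3899612 to 3900145, had 17.2 and 17.6 in 534 bp. Ranked by the smaller of both fold enrichments, the following ones lay from 3322774 to 3323352 (13.3 in replicate 1 and 12.7 in replicate 2), from 4303827 to 4304694 (11.9 and 14.0) and from 4179302 to 4180309 (16.4 and 11.9). The top 8 were completed by the segments from 3449655 to 3450469 (11.8 and 12.3), from 4275138 to 4275692 (14.4 and 11.1) and from 3811086 to 3812500 (11.5 and 10.5). The segment starting at 4303827 was the single one of these 8 that is also in the K+-specific list.

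All 8 strongest segments lay within 981921 bp, from 3322774 to 4304694, which is 16.8% of the stretch. This window held 102 segments, of which 42 (41.2%) reached 5-fold in both replicates. Outside it, 129 of 485 segments (26.6%) did. Of the 14 segments at 10-fold or more in both replicates, 8 lay inside and 6 outside, the outermost ones starting at 1019762 and ending at 5493875. The median fold enrichment was 5.11 inside and 4.45 outside in replicate 1, and 5.12 inside and 4.63 outside in replicate 2. The window was drawn around the strongest segments, so a higher share of strong ones inside follows in part from its choice.

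Among the 5 longest segments, the first, starting at 4232026, and the second, starting at 3811086 with 1415 bp, were also among the strongest. The others lay from 5028018 to 5029188 (1171 bp, 11.7-fold and 10.4-fold in replicates 1 and 2), from 4743686 to 4744832 (1147 bp, 6.76-fold and 7.83-fold) and from 3366503 to 3367590 (1088 bp, 10.7-fold and 8.04-fold). All of these 5 were above the median of enrichment in both replicates. This did not hold for every segment of at least 1000 bp. The segment from 141695 to 142768 (1074 bp) had 3.54-fold in replicate 1 and 7.96-fold in replicate 2. That from 2008982 to 2010049 (1068 bp) had 3.82-fold in replicate 1 and 4.66-fold in replicate 2. The medians of all segments were 4.54-fold and 4.68-fold in replicates 1 and 2.

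The share of peaks found again varied with their rank in the list. Of the replicate 1 peaks 577 (77.1%) overlapped a replicate 2 peak, and of the replicate 2 peaks 569 (65.3%) overlapped a replicate 1 peak. In the most enriched quintile, this share was 98.0% (95% Wilson interval 94.3 to 99.3, n = 150) for replicate 1 and 96.0% (91.9 to 98.0, n = 174) for replicate 2. In the least enriched quintile it was 64.0% (56.1 to 71.2, n = 150) for replicate 1 and 36.6% (29.8 to 43.9, n = 175) for replicate 2. In replicate 1 the interval of the lowest quintile overlapped that of the next, at 59.1% (51.0 to 66.6). In replicate 2 the share was higher at every step. There too, the interval of the lowest quintile overlapped that of the next, at 51.1% (43.8 to 58.5). By length, the share was 96.0% (91.5 to 98.2) and 89.1% (83.6 to 92.9) in the longest quintile of replicates 1 and 2, and 50.7% (42.7 to 58.6) and 44.0% (36.9 to 51.4) in the shortest quintile. These intervals cover counting error only.

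**Figure D2:**
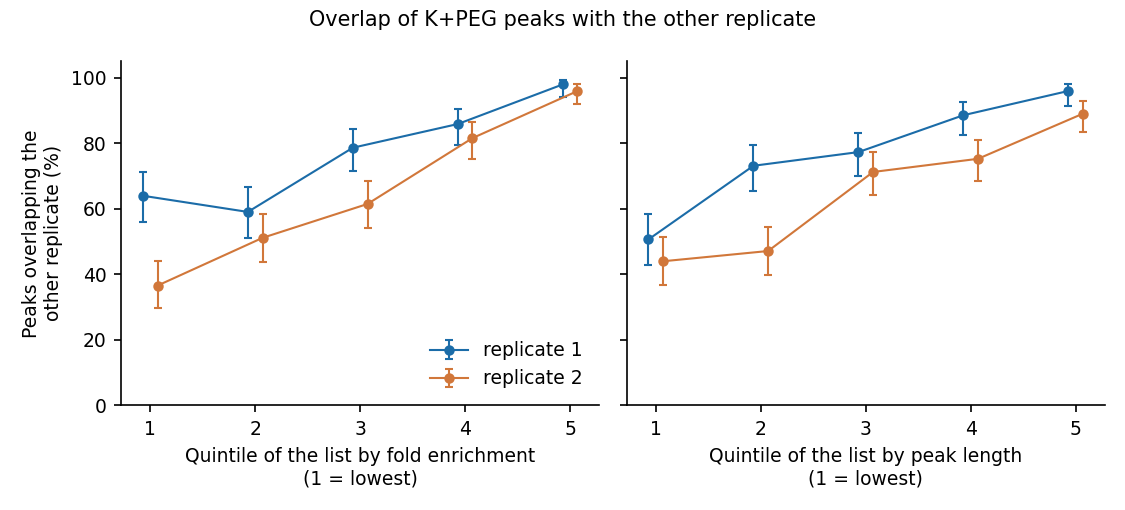
Share of peaks that overlap a peak of the other K+PEG replicate, in percent, by quintile of the list ranked by fold enrichment (left) or by peak length (right). Points are shares of 149 to 175 peaks, and bars are 95% Wilson intervals. The share reaches 98.0% and 96.0% in the most enriched quintile of replicates 1 and 2.

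Peaks without a partner were less enriched and shorter at the median, though some were strong. The 171 lone peaks of replicate 1 had a median of 3.72-fold and 261 bp, against 4.51-fold and 378 bp for its overlapping peaks. The 302 lone peaks of replicate 2 had 3.27-fold and 284.5 bp, against 4.67-fold and 418 bp. The most enriched lone peak of replicate 1 lay from 745373 to 745731, with 8.78-fold and a −log10 p-value of 34.0, rank 41 in its list, and the nearest replicate 2 peak was 5668 bp away. That of replicate 2 lay from 309805 to 310154, with 8.07-fold and a −log10 p-value of 44.6, rank 68, and the nearest replicate 1 peak was 1117 bp away. Lone peaks were seldom near misses, since 23 (13.5%) in replicate 1 and 52 (17.2%) in replicate 2 lay within 500 bp of a peak of the other library.

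Summits lay near the middle of the peaks. Divided by the peak length, the distance of the summit from the start had a median of 0.50 in replicate 1 and 0.49 in replicate 2, with quartiles of 0.39 and 0.61, and of 0.38 and 0.60. The middle 20% of the peak held the summit in 46.8% and 47.3% of peaks of replicates 1 and 2, and the outermost 20% on either side together in 7.89% and 7.12%. Long peaks were less regular. Among peaks of at least 600 bp, the summit was in the middle 20% in 23.0% of 126 in replicate 1 and 25.6% of 176 in replicate 2, whereas among peaks under 300 bp it was there in 53.7% of 281 and 53% of 300. In bp, the median distance from the start was 166.5 and 168, and that to the end was 164 and 174.

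The replicates placed their summits close together. The summits of the peaks that make a segment lay 46 bp apart at the median (quartiles 19.5 and 103 bp), which is short beside the median segment of 312 bp. They were within 10 bp at 82 segments (14.0%), within 50 bp at 317 (54.0%) and within 100 bp at 434 (73.9%). The signed shift from replicate 1 to replicate 2 had a median of 2 bp, so the shift in 1 direction was small. Both summits lay inside the segment in 521 cases (88.8%), a single one in 60 and neither in 6. More enriched segments had closer summits, with medians of 65, 45, 48 and 38 bp from the lowest to the highest quartile of the mean fold enrichment, though the inner quartiles do not follow the order.

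**Figure D3:**
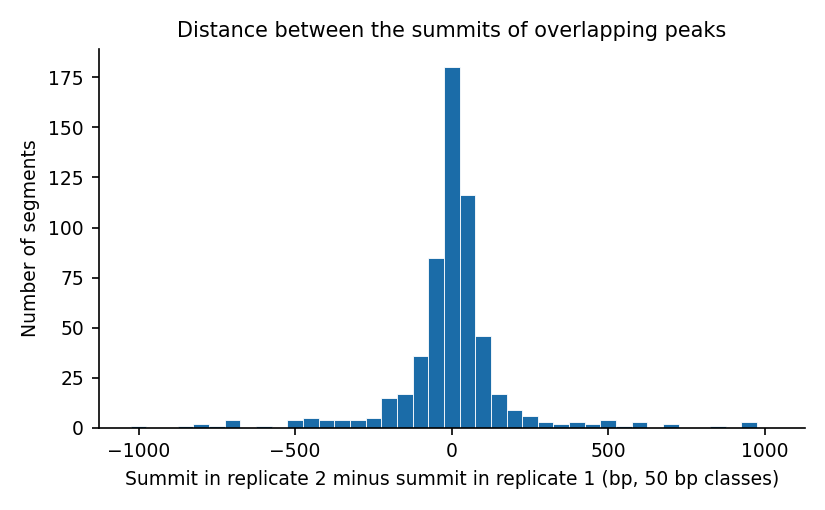
Position of the summit in replicate 2 minus that in replicate 1, in bp, for the 587 reproducible segments, in classes of 50 bp. Bars are numbers of segments. They gather around 0, with 73.9% within 100 bp, and tails reach 1012 bp.

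The tail of the distribution held summits far apart, with 5% of segments over 472 bp and a largest distance of 1012 bp. The strongest segment itself was such a case, since its summit was at 4233016 in replicate 1 and at 4232304 in replicate 2, 712 bp apart within 1962 bp. At the segment from 3811086 to 3812500 the summits were 970 bp apart. At the other 6 of the 8 strongest segments, the distance was between 1 and 46 bp. Among the 87 segments with both peaks at 600 bp or more the median distance was 51 bp, and among the 74 with both peaks under 300 bp it was 29.5 bp.

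Along the chromosome, the segments were spread over the whole stretch at 100 per Mb. In the 58 whole bins of 100 kb, their number was 10 at the median and ranged between 3 and 16. Each megabase held between 84 segments, from 2000001 to 3000000, and 109, from 1000001 to 2000000. The last and shorter part, from 5000001 to 5855384, held 101, or 118 per Mb. The median fold enrichment by megabase was between 4.24 and 4.91 in replicate 1 and between 4.49 and 5.11 in replicate 2. The share of segments at 5-fold in both replicates was lowest from 1000001 to 2000000 (20 of 109). It was highest from 4000001 to 5000000 (33 of 88). Across the 58 bins, the number of segments and their median fold enrichment had a Spearman's rho of 0.09.

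The densest bins were from 1 to 100000, from 100001 to 200000 and from 3700001 to 3800000, with 16 segments each. The bin that follows the first pair, from 200001 to 300000, held 15, so the beginning of the chromosome was a dense stretch in the combined set. In these first 3 bins, replicate 1 had 16, 21 and 19 peaks and replicate 2 had 19, 20 and 21. The sparsest bins were from 2300001 to 2400000 with 3 segments, from 4800001 to 4900000 with 4, and from 600001 to 700000 with 5, a number also found in 2 further bins. The variance of the counts per bin was 0.999 times their mean, where a Poisson distribution has a ratio of 1. This ratio was 0.996 for the peaks of replicate 1 and 0.927 for those of replicate 2. Across bins, the numbers of peaks of replicates 1 and 2 had a Spearman's rho of 0.57.

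**Figure D4:**
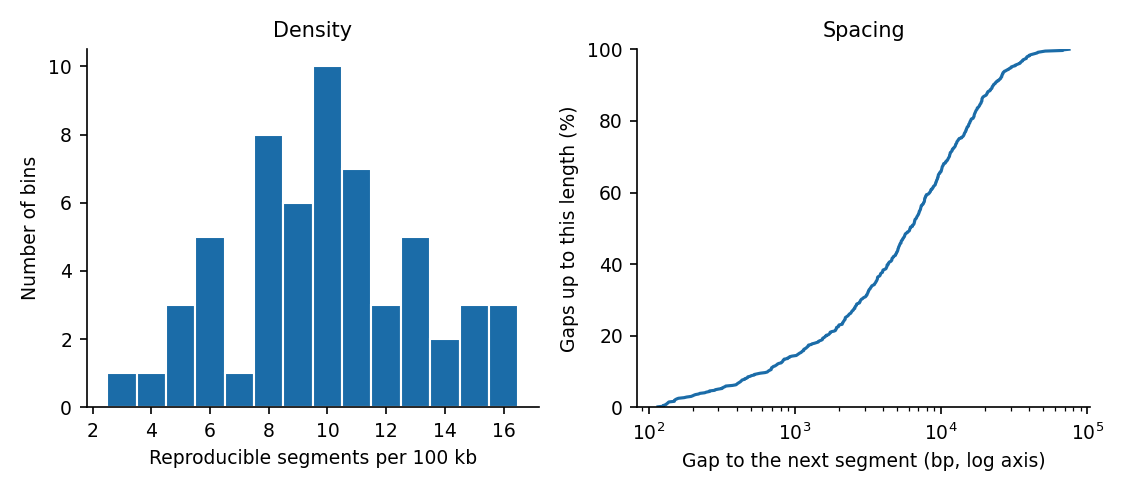
Left, number of 100 kb bins (y axis) by the number of reproducible segments they hold (x axis), for 58 bins with 3 to 16 segments. Right, share of the 586 gaps between neighbouring segments, in percent, that are no longer than the length on the x axis (bp, log axis), which reaches 50% at 6155 bp.

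Neighbouring segments were a few kb apart. The gap from the end of a segment to the start of the next had a median of 6155 bp (quartiles 2222.5 and 13295 bp) and a mean of 9584 bp. It was 3828.5 bp between whole peaks of replicate 2 alone, and 12560 bp between the 270 segments left when both lists kept peaks at or below their median p-value (50% of each). The SD across gaps was 1.09 times the mean. Of the 586 gaps, 84 (14.3%) were at most 1000 bp, 254 (43.3%) at most 5000 bp and 76 over 20000 bp. A single peak of 1 replicate spanned 28 of these 84 short gaps, so that the segments on both sides belong to 1 continuous peak there. Of the other 558 gaps, 56 (10.0%) were at most 1000 bp, and their median was 6640 bp. Joined across gaps of up to 5000 bp, the segments formed 333 groups, of which 196 held a single segment and 13 held 5 or more, together 75 segments (12.8%). The largest group had 8 segments in 17589 bp. The tightest run of 5 lay from 5803328 to 5807693, in 4366 bp. Its segments had between 3.39-fold and 5.98-fold enrichment in replicate 1 and between 2.21-fold and 8.60-fold in replicate 2, and a single replicate 2 peak of 1477 bp spanned the first 2 of them.

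The longest gap without a segment was from 4811895 to 4886887, with 74993 bp. It was not empty, for it held 5 peaks of replicate 1 and 5 of replicate 2, none of which overlapped. The second, from 660568 to 728797 (68230 bp), held no replicate 1 peak and 2 replicate 2 peaks. The third, from 2292465 to 2360154 (67690 bp), held 1 peak of each.

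The authors' K+-specific list holds segments found under K+PEG without a reproducible counterpart under Na+PEG, and it covers all 12 chromosomes. On the stretch of Chr1 it holds 205 entries, each identical in position to 1 of the 587 reproducible segments (34.9%). Enrichment at these 205 segments was 3.99-fold at the median in replicate 1 and 3.76-fold in replicate 2, against 5.01-fold and 5.43-fold at the other 382. Their median length was 253 bp, against 357 bp for the others. Some listed segments were parts of a peak whose other part was not listed, such as that of 6 bp from 1248498 to 1248503. Both replicates reached 5-fold at 20 of the 205 (9.76%), against 151 of the others (39.5%). By quartile of the mean fold enrichment, from lowest to highest, 59.9%, 42.2%, 30.1% and 7.48% of segments were in the list. Membership depends on which peaks were called under Na+PEG. Whether weak segments enter the list more readily for that reason was not tested. The distance between summits was much the same, 48 bp against 45.5 bp. The number of K+-specific and of other segments per 100 kb bin had a Spearman's rho of 0.06 across 58 bins, and 3 bins held no K+-specific segment.

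Genome-wide, the list has 16725 K+-specific IP-G4s over a summed span of 373 Mb, or 44.9 per Mb. The span of a chromosome was taken from its first to its last IP-G4, as chromosome lengths of this build were not at hand. The density was highest on Chr5 with 48.8 per Mb, then 47.5 on Chr9, 47.0 on Chr10, 46.7 on Chr12, 46.1 on Chr8 and 45.7 on Chr7. It was 44.9 on Chr4, 44.4 on Chr6, 43.13 on Chr2, 43.10 on Chr11 and 43.08 on Chr1, and lowest on Chr3 with 41.2 per Mb. The chromosomes had a mean of 45.1 ± 2.23 per Mb (SD across 12 chromosomes) and a ratio of 1.18 between highest and lowest. Longer chromosomes held more IP-G4s but at a lower density, with a Spearman's rho across 12 chromosomes of 0.94 between span and number and of -0.75 between span and density. Span enters the density itself.

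**Figure D5:**
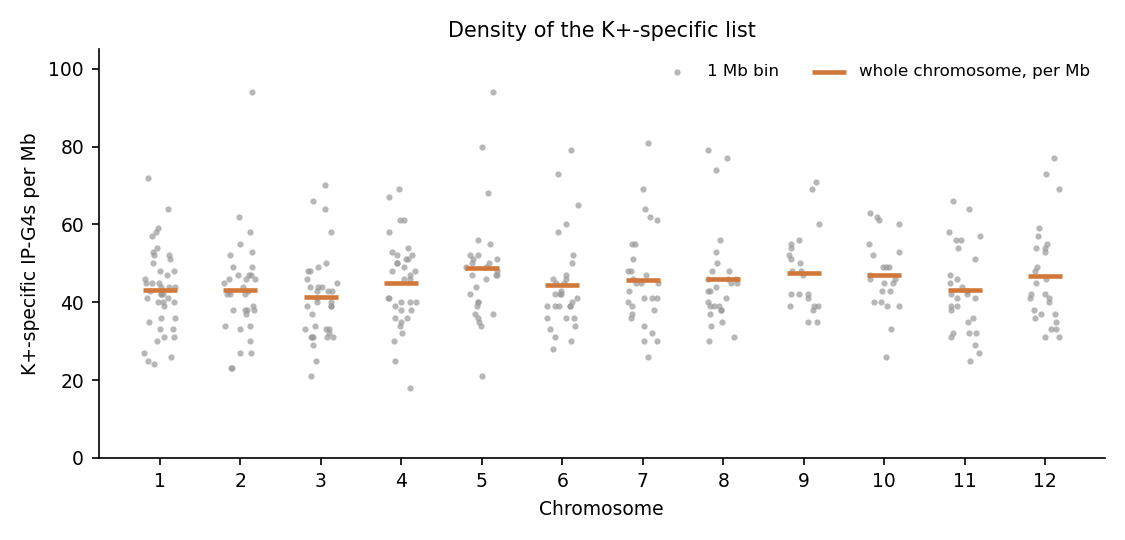
Number of K+-specific IP-G4s per Mb (y axis) on each of the 12 chromosomes (x axis). Grey points are whole 1 Mb bins, spread sideways at random for visibility, and orange bars are the density of the whole chromosome. The bins range between 18 and 94, and the chromosomes, as averages over many bins, between 41.2 and 48.8 per Mb.

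Along the chromosomes the number per bin was uneven. In 367 whole bins of 1 Mb, the number of K+-specific IP-G4s had a median of 43 and 5th and 95th percentiles of 29 and 67.7, and the variance was 3.07 times the mean. The fullest bins were on Chr2 from 13000001 to 14000000 and on Chr5 from 10000001 to 11000000, with 94 each, and on Chr7 from 9000001 to 10000000, with 81. The fullest bin of the other chromosomes held between 63 on Chr10 (from 4000001 to 5000000) and 79 on Chr6 (from 15000001 to 16000000) and on Chr8 (from 13000001 to 14000000). In between were Chr12 with 77 (9000001 to 10000000), Chr1 with 72 (16000001 to 17000000), Chr9 with 71 (7000001 to 8000000), Chr3 with 70 (19000001 to 20000000), Chr4 with 69 (3000001 to 4000000) and Chr11 with 66 (10000001 to 11000000). The emptiest bin held 18, on Chr4 from 31000001 to 32000000.

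The middle part of most chromosomes was denser than the outer parts. When the whole bins of each chromosome were divided into 3 equal parts, the middle part held 51.2 IP-G4s per Mb on average over 123 bins and the outer parts 41.6 over 244 bins (41.7 with the incomplete last bin of each chromosome). The middle part was denser on 11 of 12 chromosomes, Chr4 being the exception with 44.3 in the middle and 45.4 outside. Of the 14 whole bins with 70 or more IP-G4s, 13 lay in a middle part. The fullest whole bin lay there on 10 of 12 chromosomes, Chr4 and Chr10 being the exceptions. Towards the ends, the last whole bin held fewer IP-G4s than the median whole bin on 12 of 12 chromosomes (30 to 40 IP-G4s). The first bin did so on 7. The incomplete last bin, measured up to the last IP-G4 listed, was denser than the median whole bin on 6 chromosomes (on Chr11 with 1 IP-G4 only). An example was Chr5 with 64 IP-G4s in 0.935 Mb (68.4 per Mb). The stretch of Chr1 described above, with 35.0 K+-specific IP-G4s per Mb, was sparser than the list as a whole. The first 5 whole bins of Chr1 held 32.2 on average and the 38 that follow held 44.6. These 38 include the bin from 5000001 to 6000000, which held 54 and lies mostly within the stretch. The spacing and density of reproducible segments were measured on this stretch only.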

How the data were processed

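According to the study's methods, the authors mapped reads cleaned with Trim Galore to the MSU v7.0 genome (BWA), took out PCR duplicates (SAMtools) and ran MACS on each library against the input. The deposited lists give for each peak a fold enrichment over input (a ratio), the −log10 of the p-value and q-value, and a summit offset. The score deposited by the authors is a multiple of the −log10 p-value and was not used. The lists used here hold the beginning of Chr1, and their incomplete last lines were left out. Positions are printed counted from 1.

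Lists were intersected with bedtools 2.31.1, with a minimum overlap of 1 bp. Medians, gaps, bins of 100 kb and 1 Mb, and Wilson intervals at 95% were computed in Python 3.11.15 with numpy 2.4.6, pandas 2.3.3 and scipy 1.17.1. Only the intersection of lists and the ratio of variance to mean were tested on simulated data, and the gaps on a small made-up example. Segments were counted in the bin of their midpoint. Loci named are the 8 strongest and 5 longest segments, the extreme bins and gaps, the tightest run of 5 and the strongest lone peaks, by a rule. Members and rules were chosen with earlier results of these data known. Gene names and locus sequences were not analysed here, since the gene table at hand is of another assembly. Depth is unknown from these files.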

Additional observations from a re-analysis of the deposited data

How the results depend on the processing

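Of 40 alternative values for 9 results, 17 moved by less than the criterion and 23 by more. The criterion was a factor of 1.5 for the number of segments, the SD between both libraries for lengths, enrichment, gaps, dispersion and relative summit position, a 95% interval of the median (41 to 51 bp) for the distance between summits, and a 95% Poisson interval (44.2 to 45.6 per Mb) for the K+-specific density. Both intervals treat segments or IP-G4s as independent, although those of 1 genome are not replicates. The K+-specific counts per 1 Mb bin had a variance 3.07 times their mean, so the Poisson interval is too narrow. No peak failed a q-value of 0.05, so that alternative changes nothing by construction, and its values count among the 17. Restricted to peaks at or below the median p-value of their list (50% of each), there were 270 segments, with a median of 385.5 bp, 6.05-fold, a gap of 12560 bp, a variance of 1.25 times the mean and summits 40.5 bp apart. When the overlap had to cover at least 50% of each of the 2 peaks, there were 479 segments, 335 bp, a gap of 7922 bp and a variance of 0.834 times the mean. With 1 library left out, whole peaks of the other stand in for segments, which gave 748 to 871 peaks, 347.5 to 362 bp, 3.99-fold to 4.30-fold, gaps of 3828.5 to 4845 bp and a dispersion of 0.927 to 0.996. The SD criterion for lengths, enrichment, gaps and dispersion was computed from these same single-library values, so it is no independent yardstick for them. The span of the merged peaks was 499 bp at 559 loci. Means in place of medians were 379 bp, 5.24-fold and 9584 bp, and the smaller enrichment of both replicates had a median of 4.02-fold. In bins of 200 kb the dispersion was 1.08. The K+-specific list had 37.7 IP-G4s of at least 200 bp per Mb. It covered 13366 bp per Mb, a value in another unit that was not set against the number per Mb. Except where a value or the construction shows it, the cause was not tested. Chromosome lengths of the same build were not used, so density by chromosome length was not run. No paired analysis was possible because no result comes from a test.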

Other observations

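Some values were singled out after they had been seen. The bin of Chr1 from 2400001 to 2500000 held 24 peaks of replicate 1, its highest number, beside 12 of replicate 2, and gave 8 segments. In it 17 replicate 1 peaks had no partner, where the bin with the next highest number had 8 and the median bin 3. These 17 lay between 2414709 and 2492232, with fold enrichments between 2.67 and 6.61, a median of 3.77 and a median length of 314 bp. In replicate 2, the number of lone peaks per bin had a median of 5 and was at most 11.

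The first segment of Chr1, from 904 to 1248, lies at the very start of the chromosome sequence and is in the K+-specific list. Its enrichment was 12.5-fold in replicate 1 and 6.25-fold in replicate 2, and its summits were 10 bp apart.

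The list of replicate 1 reaches past the shared stretch, to 6710716. On these 0.855 Mb it holds 126 peaks, or 147 per Mb, with a median of 4.51-fold and 344 bp. The K+-specific list has 51 entries there, and 51 lie inside a replicate 1 peak. This follows by construction if the entries are overlaps of peaks of both replicates, as they were on the shared stretch.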
